A study of Musca domestica with 24 samples.

Results

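Heads of house flies (Musca domestica) that received double-stranded RNA against Md-tra and carry the library code N were compared with heads of females that received double-stranded RNA against GFP. They make up 6 of the 24 libraries of the study, 3 per group, and were chosen by tissue and library code alone. Each library was made from the polyadenylated RNA of the head of a single fly of the strain IIIM (3-6), with no age given for the flies. By the sample titles, N flies were genotypic females that had become phenotypic males, and GFP females were genotypic and phenotypic females. The headers of the deposited comparisons instead call the N libraries normal males treated against Md-tra. The same conflict holds for the other Md-tra RNAi group, coded SR, which the titles give as genotypic males with a male phenotype and the headers as sex-reversed males. GFP males, the last group of heads, were genotypic and phenotypic males treated against GFP, and abdomens of all 4 groups were sequenced as well. By the titles, N against GFP female heads shows the knockdown in genotypic females. By the headers it sets Md-tra-treated genotypic males against control females, so that genotype and treatment both differ. The groups are called N and SR here, and neither reading is used to explain a value.

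Transformer is an RNA-binding splicing regulator at the centre of sex determination in many flies. In house fly females, active Md-tra protein keeps its own transcript in the female splice form and directs doublesex and fruitless transcripts into theirs. A dominant male determiner, which in this kind of strain lies on the third chromosome, breaks that loop, and the male splice forms follow. The third chromosome corresponds to Muller element A, the arm that forms the X chromosome in Drosophila melanogaster. GFP, a jellyfish protein, has no counterpart in the fly, and RNA against it is the control treatment. The level of Md-tra transcripts is not analysed here, and the strength of the knockdown is therefore unknown.

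The N heads held 23355977, 12080603 and 19786022 reads assigned to genes, against 27872130, 28805333 and 35498286 in the GFP female heads. All 3 N libraries were shallower than every GFP female library, N replicate 2 the most. GFP female replicate 1 was made from 1.2 µg of RNA and all other libraries from 1.5 µg. The gene para-like, named for the sodium channel of nerve cells, was read in every head, while the ovary gene bcd had 0, 2.52 and 0 normalized counts in N heads and 0, 0 and 2.78 in GFP female heads. SR replicate 2 stood apart on the second principal component of the 12 heads at -137, where the other 11 lay between -37.3 and 50.5. Component 1 (29.3%, against 18.7% for component 2) placed GFP female replicate 2 lowest, at -112. GFP female replicates 1 and 3 scored -8.17 and -46.6 there, and N replicates 1 to 3 scored -26.9, -18.8 and 20.6. GFP female replicate 2 correlated with the N heads at 0.884, 0.877 and 0.868, and the other GFP females at 0.895 to 0.924 (Pearson, log2 scale). In the authors' deposited table, the fold change headed sex-reversed male against GFP female differed from the ratio of SR replicates 1 and 3 over GFP females by a median of 0.00143 on the log2 scale, and by 0.256 from the ratio of N over GFP females. The deposited head comparisons therefore left out SR replicate 2, and N against GFP female heads is not among them.

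Of 12237 genes tested, 111 differed between N and GFP female heads, 68 higher and 43 lower in N, or 0.907% of the genes, 0.556% higher and 0.351% lower. Values are counts divided by a size factor for each library (normalized counts). A gene was tested when at least 3 of the 12 heads reached 10, and the differences were tested with limma on log2(normalized count + 1) at a Benjamini-Hochberg adjusted p below 0.05. The median difference over all genes was -0.01, a value that the size factors hold near 0. The genes higher in N differed by a median of 3.52 on the log2 scale and those lower by -2.0, with ranges of 0.76 to 9.84 and -0.88 to -9.62. In all 111 genes the 3 N heads lay outside the range of the 3 GFP female heads, a pattern that 17.4% of all tested genes showed, 8.87% with N above and 8.51% with N below. Among the called genes 65 of 68 higher and 39 of 43 lower ones differed by more than 1 on the log2 scale. LOC101900813 at 2.71 and LOC101896729 at 1.50, both with an adjusted p of 0.04996, lay just inside the threshold, and LOC101898587 at 0.77 (0.0523) and LOC101891754 at -0.69 (0.0533) just outside it by limma. The count fell to 33 without N replicate 2, 44 without N replicate 3 and 70 without GFP female replicate 2, and it was 233 without GFP female replicate 3 and 264 without SR replicate 2. In whole heads, fewer cells of a type and less RNA per cell cannot be told apart.

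**Figure D1:**
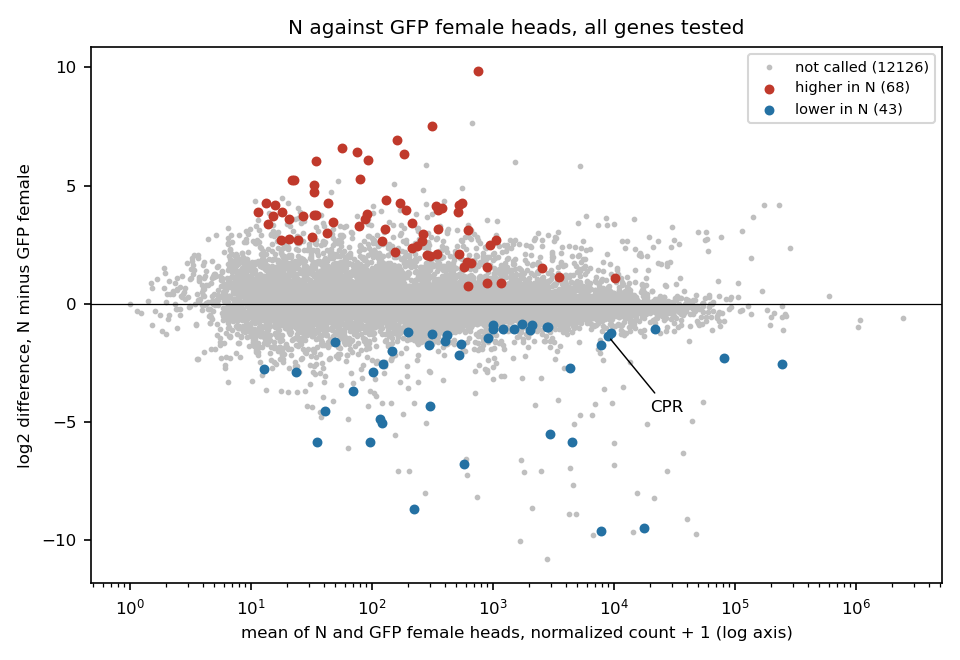
Each point is 1 of the 12237 tested genes, with the mean of the N and GFP female heads on a log axis (normalized count + 1) and the log2 difference, N minus GFP female, on the y axis. Red points are the 68 genes higher and blue points the 43 genes lower in N by limma. Grey points did not pass the test, among them 31 genes lower and 6 higher in N by at least 5.

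Genes that were close to absent from GFP female heads led those higher in N, and the tables give no name beyond an identifier to any of the 10 with the widest differences. LOC101892939, on no assigned element, had 2697, 1304 and 508 normalized counts in the N heads, against 1.35, 0 and 0 in the GFP female heads. That 1 female read makes the N level 3339 times the female level, with a counting interval of 599 to 131871, and the log2 difference was 9.84 ± 0.85 (SE, n = 3 per group, limma adjusted p = 0.000594). N replicate 1 was the highest and N replicate 3 the lowest of the 3, yet all stood far above every female head.

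LOC101889437 on element A had 632, 675 and 571 normalized counts in N heads, against 0, 2.67 and 10.2 in GFP female heads. Its N heads were close to one another and 146 times the female mean (7.50 ± 0.70 on the log2 scale, SE, n = 3 per group, limma adjusted p = 0.000813). LOC105262053 on element C had 471, 322 and 157 in N heads, against 1.35, 0 and 4.63 in GFP female heads, and LOC105262139 on element A had 402, 244 and 445 in N heads, against 2.7, 6.67 and 1.85 in GFP female heads. The lowest N head was 34.0 times the highest female head for LOC105262053 and 36.6 times for LOC105262139. LOC109614219, another element C gene, had 97.2, 159 and 186 normalized counts in N heads, against 1.35, 0 and 0.926 in GFP female heads, with a log2 difference of 6.43 ± 0.45 (SE, n = 3 per group, limma adjusted p = 0.000128).

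No read at all was counted in any GFP female head for 4 of the 68 genes, and 1 to 3 reads over the 3 female heads for 8 others. LOC109613990 had 42.7, 111 and 178 normalized counts in N heads and no read in GFP female heads, so it was at least 30.6-fold higher in N when 3 reads per female library are taken as the floor. LOC105262442 had 85.4, 70.5 and 47.2 in N heads, against no read in GFP female heads, at least 18.8-fold higher. LOC109614224 on element C, named after its values were seen, had 16.2, 50.4 and 58.2 in N heads, against no read in GFP female heads, at least 11.5-fold higher. In these 3 genes every N head lay above the female floor of 2.78 to 4.05 normalized counts. Of the 68 genes, 26 had no GFP female head at 10 and could only be tested through other groups, but none was tested through N heads alone.

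**Figure D2:**
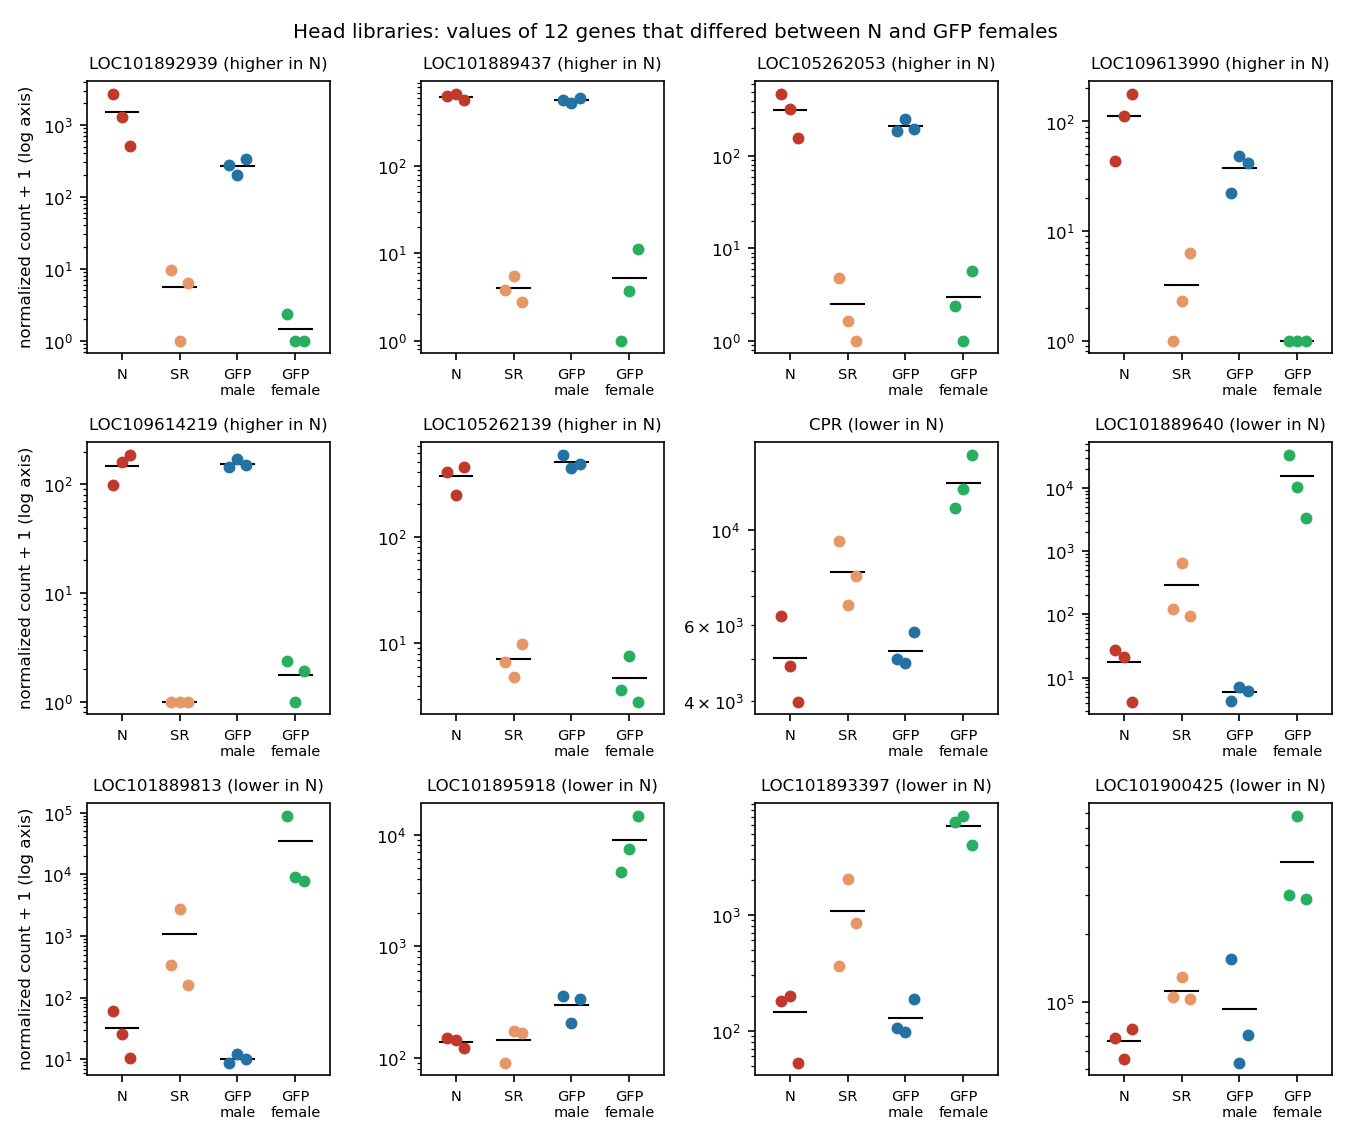
Normalized count + 1 (log axes, a range of its own per panel) in each head library of N, SR, GFP males and GFP females for 12 genes, where points are libraries and lines are group means. The 3 N heads and the 3 GFP female heads do not overlap in any panel, and in the first 6 genes the SR heads lie near the GFP female heads.

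The remaining 3 of the 10 were likewise close to absent from GFP female heads. LOC101890558 on element E had 63.3, 62.9 and 418 normalized counts in N heads, against 1.35, 1.33 and 0 in GFP female heads, so that 1 N head stood well above the other two. LOC101893691 had 95.7, 247 and 119.6 in N heads, against 5.4, 0 and 6.48 in GFP female heads (limma adjusted p = 0.0379). LOC109612372 on element A had 88.4, 57.9 and 44 in N heads, against 0, 1.33 and 1.85 in GFP female heads (limma adjusted p = 0.0379). The calls of LOC101893691 and LOC109612372 were both lost without any 1 of the N libraries or without GFP female replicate 1 or 2, with adjusted p of 0.0573 to 0.149 and 0.089 to 0.127. Neither gene was called by edgeR on the recovered reads (adjusted p of 0.0917 and 0.096).

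The tightest differences were found in genes that females also expressed. LOC101895413 on element E, named after its values were seen, had the lowest p of all genes, with 1021, 886 and 999 normalized counts in N heads, against 72.9, 50.7 and 74.1 in GFP female heads (3.88 ± 0.20 on the log2 scale, SE, n = 3 per group, limma adjusted p = 2.42e-05). LOC109612165 on element A, chosen in the same way, had 214, 186 and 227 in N heads, against 25.7, 37.4 and 33.3 in GFP female heads. Within each of these groups the heads lay near one another. LOC101896805, also on element A, had the highest counts of the genes higher in N. It averaged 13710.5 ± 768 normalized counts in N heads and 6551 ± 1325 in GFP female heads (SD, n = 3 each), a log2 difference of 1.08 ± 0.16 with a limma adjusted p of 0.0118 that was 0.0717 without N replicate 2. With the 2 groups fitted alone the limma adjusted p was 0.106.

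Genes lower in N were led by a pair on element A with high counts in females. LOC101889640 had 26.5, 20.1 and 3.15 normalized counts in N heads, against 33398, 10392 and 3385 in GFP female heads (-9.62 ± 0.99 on the log2 scale, SE, n = 3 per group, limma adjusted p = 0.00163). LOC101889813 had 60.4, 25.2 and 9.44 in N heads, against 89118, 9009 and 7793 in GFP female heads (-9.49 ± 1.15 on the log2 scale, limma adjusted p = 0.00413). GFP female replicate 1 was the highest female head in both genes, at 9.87 times the lowest for LOC101889640 and 11.4 times for LOC101889813. That library also led in yp3, a yolk protein gene that female fat body expresses, with 657, 222 and 162 normalized counts in N heads and 192977, 2141 and 28506 in GFP female heads. The part of such tissue in these differences was not tested. Over the 43 lower genes, GFP female replicate 1 was the highest female head in 12, replicate 2 in 22 and replicate 3 in 9.

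LOC101895918, a further element A gene, differed with less spread. It had 150.2, 144 and 121 normalized counts in N heads, against 4609.7, 7476 and 14684 in GFP female heads (-5.84 ± 0.41 on the log2 scale, SE, n = 3 per group, limma adjusted p = 0.000128). LOC101893397 on element B had 178, 199 and 51.9 in N heads, against 6371, 7133 and 3999.7 in GFP female heads, and LOC101900203 on element A had 8.84, 10.1 and 3.15 in N heads, against 201, 276 and 202 in GFP female heads. Between the nearest libraries, the lowest female head was 30.7 times the highest N head for LOC101895918 and 20.1 times for LOC101893397. LOC101890423 on element A, named after its values were seen, was lower by a smaller factor but evenly, with 205, 181 and 179 normalized counts in N heads, against 764, 1025 and 808 in GFP female heads.

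No read in any N head was counted for 2 of the lower genes. LOC101899216 on element D had no read in N heads, against 246, 683 and 399 normalized counts in GFP female heads, and was at least 79.6-fold lower in N with a floor of 3 reads per N library. LOC101896716 had no read in N heads, against 98.6, 22.7 and 84.3 in GFP female heads, and was at least 12.3-fold lower. LOC101896716 and LOC101889667 reached 10 in GFP female heads alone and were tested through that group, so that their difference follows in part from the filter. For LOC101896716 edgeR gave an adjusted p of 0.131 on the recovered reads, where limma gave 0.00636. LOC109612354 on element A had 2.95, 2.52 and 0 normalized counts in N heads, against 45.9, 362 and 163 in GFP female heads. LOC101897531 had 16.2, 2.52 and 1.57 in N heads, against 2690.4, 116 and 662 in GFP female heads, and LOC101887686 on element D had 4.42, 7.55 and 6.29 in N heads, against 294, 217 and 193 in GFP female heads. The highest female head was 23.2 times the lowest for LOC101897531 and 1.53 times for LOC101887686. By edgeR LOC101899216, LOC109612354, LOC101897531 and LOC101887686 were not called either, with adjusted p of 0.124, 0.0664, 0.0661 and 0.0603. The calls of LOC101899216, LOC109612354, LOC101897531 and LOC101887686 were each lost without N replicate 2 or 3 (limma adjusted p of 0.114 to 0.127, 0.0717 to 0.0837, 0.127 to 0.131 and 0.113 to 0.119). Leaving out a GFP female replicate also ended the call of LOC101899216 (0.0516 to 0.118), of LOC109612354 without replicate 2 (0.0742), of LOC101897531 without replicate 1 or 3 (0.0736 and 0.0513) and of LOC101887686 without replicate 1 or 2 (0.0811 and 0.104), and LOC101899216 and LOC101887686 were not called without N replicate 1 (0.0787 and 0.0852).

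Several genes with high counts in female heads were lower in N. LOC101900425 on element D had 68865, 55404 and 75772 normalized counts in N heads, against 298615, 677499 and 288014 in GFP female heads (-2.55 ± 0.45 on the log2 scale, SE, n = 3 per group, limma adjusted p = 0.0288). LOC101887335, also on element D, had 21958, 24685 and 32202 in N heads, against 99942, 196798 and 109497 in GFP female heads. GFP female replicate 2 was the highest head in both genes, and the groups did not overlap. LOC101890741 on element C averaged 13759 ± 1101 in N heads and 29609.7 ± 7979.6 in GFP female heads, and LOC101900118 on element A 5749 ± 1063 in N heads and 13376 ± 1989.7 in GFP female heads (SD, n = 3 each). LOC101893737 on element D averaged 3609 ± 723 in N heads and 11984 ± 883 in GFP female heads, and LOC101890206 on element B 1111 ± 48.5 in N heads and 7494 ± 1951 in GFP female heads. With LOC101896805, CPR and the 4 lower genes LOC101889640, LOC101889813, LOC101895918 and LOC101893397, these 6 make up the 12 called genes that averaged at least 5000 in their higher group, 1 higher and 11 lower in N. How many of all tested genes averaged as high, and in which direction they differed, was not counted, so this split only describes the named genes. LOC101900425, LOC101887335, LOC101890741 and LOC101900118 lost their calls without any 1 of the N libraries, with limma adjusted p of 0.0686 to 0.127, 0.0571 to 0.0891, 0.061 to 0.127 and 0.0595 to 0.14. The first 2 also lost them without GFP female replicate 2 (0.0771 and 0.0608), LOC101900118 without any 1 of the GFP females (0.0573 to 0.0958), and LOC101890206 without N replicate 2 (0.0506). By edgeR on the recovered reads LOC101890741 and LOC101900118 were not called (adjusted p of 0.0539 and 0.0603).

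CPR was the single gene with a symbol among the 111. It encodes NADPH-cytochrome P450 reductase, which passes electrons to the P450 enzymes that oxidise hydrocarbons, hormones and insecticides. CPR had 6312, 4826 and 3989 normalized counts in N heads, against 11201, 12441 and 14898 in GFP female heads. The lowest female head was 1.77 times the highest N head. The log2 difference was -1.36 ± 0.20 (SE, n = 3 per group, limma adjusted p = 0.0118), and the call was lost without N replicate 2 (0.0717) or N replicate 3 (0.0571). It was also lost with the 2 groups fitted alone (limma adjusted p = 0.0908).

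Of the 9 P450 genes and redox partners tested, CPR fell and the other 8 were not called. With 0.907% of all genes called, 8 genes without a call say nothing particular about the enzymes that CPR serves. The median log2 difference of the 9 was 0.12, with a range of -1.36 to 0.89, beside -0.01 for all genes. CYP6G4, a P450, had 31925, 24944 and 24484 normalized counts in N heads, against 31676, 49102 and 51249 in GFP female heads, with overlapping groups. CYP6D3, which in house flies is known from pyrethroid resistance, had 18333, 15748 and 9750.1 in N heads, against 9063, 9836 and 15286 in GFP female heads. The interval around these differences was wide, with standard errors of 0.26 to 0.97 for the 8 genes, and a missed threshold does not show that they were alike.

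Genes with a symbol were tested for 50 of the 53 in the tables, and apart from CPR all 49 missed the threshold, at a median log2 difference of -0.11 for the 50. Beside 0.907% of all genes, lists this short would hold few or no calls in any case, and their counts are given as a description. None of the 6 antioxidant and conjugating enzymes was called (median -0.32), nor the 4 serpins (-0.30), the 5 chaperonin and heat shock genes (-0.17), the 4 immune effectors (-0.19) or the 2 patterning genes tested of 3 (-0.23), and no ribosomal protein gene could be matched by symbol. Diptericin, an antimicrobial peptide gene, had 20824, 645 and 105 normalized counts in N heads, against 935, 3075 and 834 in GFP female heads, and attacin, another, 7742, 352 and 429 in N heads, against 212, 776 and 309 in GFP female heads. A single N head, replicate 1, was far above all others in both genes. HSP70, a chaperone induced by stress, had 143732, 122521 and 129193 in N heads, against 265643, 332715 and 168179 in GFP female heads, without overlap but with a limma adjusted p of 0.237.

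Neural genes gave the highest median of the lists, 1.18 over 4 genes, again without a call. MdRdl, a subunit of the GABA-gated chloride channel, had 152, 259 and 126 normalized counts in N heads, against 16.2, 9.34 and 25.9 in GFP female heads (3.35 ± 0.93 on the log2 scale, SE, n = 3 per group, limma adjusted p = 0.136). The sodium channel gene para-like had 11369, 14418 and 16997 in N heads, against 4855, 2233 and 3287 in GFP female heads (2.10 ± 0.46, limma adjusted p = 0.0699). In both genes all N heads were above all GFP female heads. The other 2, IR25a (a co-receptor of smell in Drosophila) and nAChRbeta3 (a subunit of an acetylcholine receptor), overlapped between groups. The adjusted p of para-like was 0.101 with edgeR, 0.111 with a replicate block and 0.0747 to 0.227 without 1 of the N or GFP female libraries, but 0.0202 without SR replicate 2, 0.00161 with DESeq2 and 0.0242 with array weights.

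The sex determination and yolk list held 2 tested genes. Sxl, the sex switch of Drosophila melanogaster that is not known to have that role in the house fly, had 2592, 2258 and 2605 normalized counts in N heads, against 3038, 2459.9 and 2791 in GFP female heads, a difference of -0.15 ± 0.16 (SE, n = 3 per group, limma adjusted p = 0.767). The groups of Sxl overlapped. For yp3, whose values are given above, the log2 difference was -6.30 ± 1.56 with a limma adjusted p of 0.102. The highest female head of yp3 was 90.1 times the lowest. The adjusted p of yp3 was 0.0425 without GFP female replicate 2, 0.0486 without SR replicate 2, 0.0221 with array weights and 2.8e-07 with DESeq2, but 0.12 with edgeR and 0.13 to 0.28 without any other 1 of the N or GFP female libraries.

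Large differences without a call were common beyond yp3, and this set was chosen after its values were seen. A log2 difference of at least 5 was measured in 12 higher and 9 lower genes that were called, and in 6 higher and 31 lower genes that were not. Of the 31, 28 had all N heads below all GFP female heads, beside 8.51% of all tested genes, but genes chosen for so large a difference will mostly lie apart. Over those of the 31 with a read in each GFP female head, the median ratio of the highest to the lowest female head was 31.3. It was 1.50 for the 43 lower genes that were called. So large a difference misses the threshold only where the spread is wide, so this contrast largely follows from how the sets were chosen. GFP female replicate 3 was the highest female in 18 of the 31, replicate 1 in 7 and replicate 2 in 6. Because the choice of the 31 largely fixes where their N heads lie, the share of all genes beside the next count is not a like measure. In 9 of the 31, yp3 among them, every N and every GFP male head was below every GFP female head, a pattern found in 5.09% of all tested genes. LOC101890561 was one, with 4.42, 10.1 and 0 normalized counts in N heads, against 38220.0, 614 and 1752 in GFP female heads (limma adjusted p = 0.0621). Its level was 1154, 4103 and 10.7 in SR heads and 0, 2.01 and 0 in GFP male heads.

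Other genes of the 31 were also high in GFP males. LOC101893199 on element B had 2.95, 0 and 4.72 normalized counts in N heads, 16.9, 131 and 1.78 in SR heads, 9408, 5145 and 2.24 in GFP male heads and 1426, 4386 and 4181 in GFP female heads. LOC101901138 on element C had 1.47, 363 and 26.7 in N heads, 54.5, 342 and 0 in SR heads, 31519, 16946 and 20.9 in GFP male heads and 20632, 11972 and 53350.5 in GFP female heads. In both genes every N head lay below every GFP female head. Among the 6 higher genes without a call, LOC101892644 came nearest to one, with 1342, 1563 and 1106 normalized counts in N heads, against 1.35, 8 and 13 in GFP female heads (limma adjusted p = 0.0533).

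Called genes were unevenly spread over the Muller elements that the tables assign. Element A held 1829 of the tested genes (14.9%) and 51 of the 111 called genes (45.9%), 32 higher and 19 lower in N. That is 2.79% of its genes, beside 0.405% on element B, 0.373% on C, 0.639% on D, 0.354% on E, none of 34 on F and 1.15% of the 2085 genes with no element. The median log2 difference over all genes of element A was -0.03, close to the -0.01 of all tested genes. By edgeR on the recovered reads 29 element A genes were called, 46% of its calls, and by DESeq2 171, 28% of its calls. Leaving out 1 library gave between 16 genes (without N replicate 2) and 92 genes (without SR replicate 2) on element A, or 27.5% to 48.6% of the calls.

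**Figure D3:**
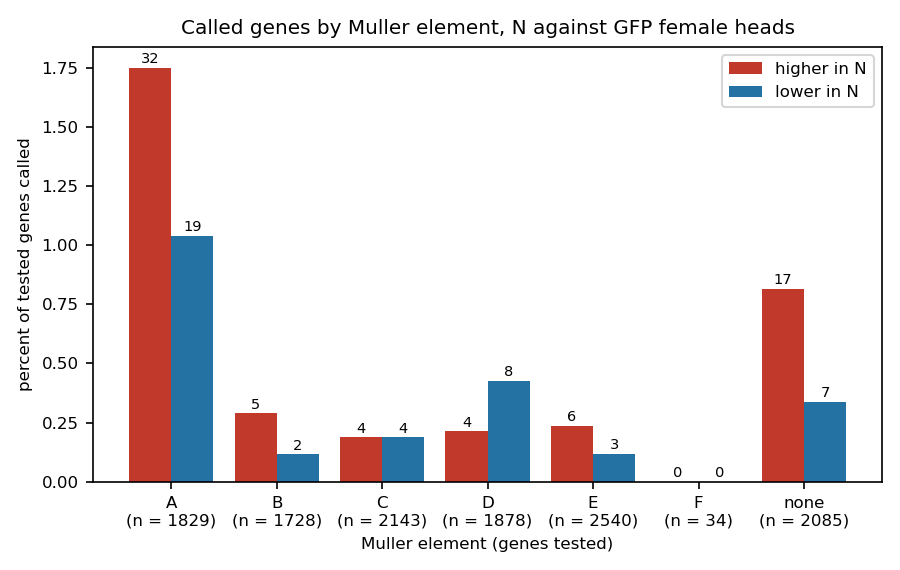
Bars give the percent of tested genes on each Muller element, or on none, that were called higher (red) or lower (blue) in N than in GFP female heads, with the number of called genes above each bar and of tested genes below. Element A has the tallest bars in both directions, with 32 and 19 genes of 1829.

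The other 2 groups of heads show how the 111 genes lay outside the 6 libraries compared. These groups still had a part in the choice, since all 12 heads gave the spread of the test. SR against GFP male heads shares no library with N against GFP female heads, although this comparison was added after values had been seen. It called 550 genes, 4.49% of those tested, 1.51% higher and 2.98% lower in SR, and between 39 (without GFP male replicate 2) and 342 (without SR replicate 2) with 1 of its libraries left out. Of the 68 genes higher in N than in GFP females, 29 were lower and 5 higher in SR than in GFP male heads, with a median log2 difference of -1.07. Of the 43 genes lower in N, 15 were higher and none lower in SR, with a median of 0.76, beside -0.05 for all genes. The 111 genes stay those chosen with a spread estimated from all 12 heads, also where SR and GFP males are fitted alone. That fit of 6 libraries called 518 genes (3.15% lower and 1.08% higher). In that fit 23 of the 68 were lower and 3 higher, and 11 of the 43 higher and none lower. The 29 became 12 without GFP male replicate 2 and 15 without GFP male replicate 3. The 15 became 8 without SR replicate 3, and 7, 5 and 6 without GFP male replicates 1, 2 and 3.

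**Figure D4:**
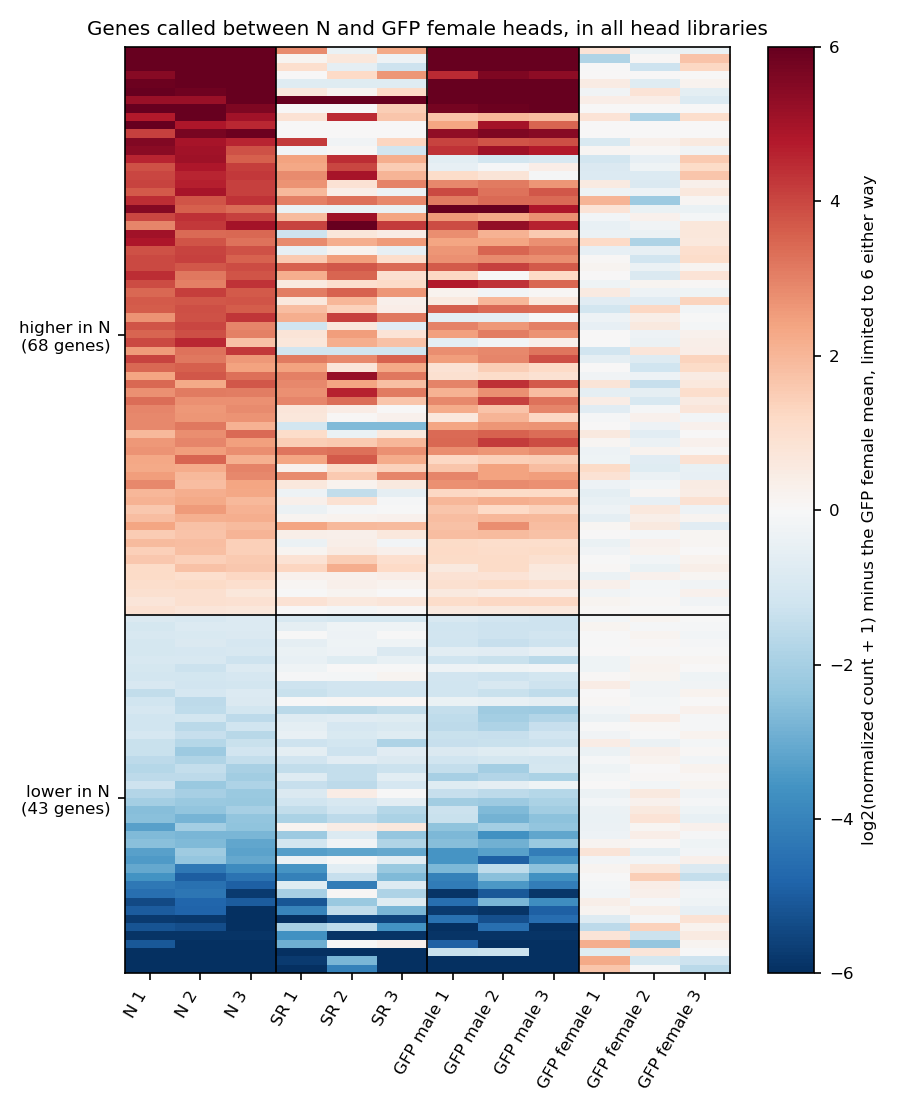
Each line is 1 of the 111 called genes, ordered by its difference between N and GFP females, and each column 1 head library of N, SR, GFP males or GFP females. Colour gives log2(normalized count + 1) minus the GFP female mean, limited to 6 either way. The N and GFP male columns share the deep colours at the top and bottom, while many genes are pale in the SR columns.

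**Figure D5:**
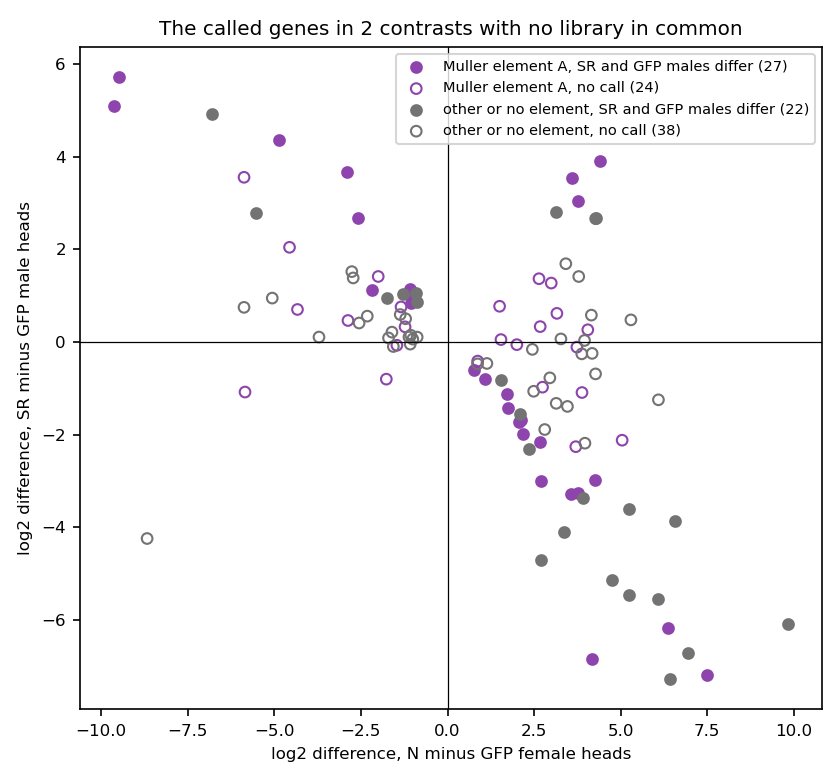
The 111 called genes by their log2 difference between N and GFP female heads (x axis) and between SR and GFP male heads (y axis), in purple for Muller element A and grey for other or no element, filled where SR and GFP males differed by limma. Among the filled points 29 lie at the lower right, 5 at the upper right and 15 at the upper left, and the choice of genes fixes the side of the x axis but not of the y axis.

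Single genes show the pattern in counts. LOC109614219, near absent from female heads and present in every N head, had no read in any SR head and 143, 169.8 and 149 normalized counts in GFP male heads (-7.27 ± 0.45 on the log2 scale for SR minus GFP male, SE, n = 3 per group, limma adjusted p = 0.000134). LOC109614224 was likewise without a read in SR heads, with 39, 48.2 and 42.5 in GFP male heads. LOC101889437 had 2.82, 4.54 and 1.78 in SR heads, against 572, 529 and 603 in GFP male heads, and LOC105262139 had 5.64, 3.89 and 8.91 in SR heads, against 579.6, 439 and 477 in GFP male heads. All SR heads were thus far below all GFP male heads in these 4 genes, a pattern whose share over all tested genes was not counted. LOC105262053, LOC105262442, LOC109613990 and LOC101892939 were also called lower in SR than in GFP males, with limma adjusted p of 0.003, 0.00162, 0.0243 and 0.00783.

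Among the lower genes, LOC101889813 had 344, 2783 and 160.4 normalized counts in SR heads, against 7.81, 11.1 and 8.95 in GFP male heads (5.72 ± 1.15 on the log2 scale, SE, n = 3 per group, limma adjusted p = 0.0279). LOC101889640 had 122, 642 and 92.7 in SR heads, against 3.21, 6.03 and 5.22 in GFP male heads. SR replicate 2 was the highest in both, as it was in yp3, with 1657, 45604 and 3424 normalized counts in SR heads, against 1207, 599 and 301 in GFP male heads, and its part in these differences was not tested. LOC101900203 had 55.4, 239 and 60.6 in SR heads, against 2.76, 5.53 and 2.98 in GFP male heads (limma adjusted p = 0.00783). Every SR head lay above every GFP male head in these 4 genes, again without a count of that pattern over all tested genes. Without SR replicate 2, 27 of the 68 genes were lower and 11 of the 43 higher in SR.

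Other genes were not called between SR and GFP male heads. LOC101895413 had 777, 864 and 704 normalized counts in SR heads, against 857, 1119 and 836 in GFP male heads (limma adjusted p = 0.463), all well above its level in GFP females. LOC109612165 had 302, 326 and 221 in SR heads, against 225, 206 and 232 in GFP male heads. Of the lower genes, LOC101895918 had 90.2, 173 and 168 in SR heads, against 361, 206 and 334 in GFP male heads, and CPR had 9401, 6682 and 7799.6 in SR heads, against 4999.8, 4901 and 5799 in GFP male heads. The SR and GFP male heads of LOC101895413 and LOC109612165 overlapped, and those of LOC101895918 and CPR did not. In CPR the SR heads were above the GFP male heads (0.60 on the log2 scale, limma adjusted p = 0.112), and in LOC101895918 they were below.

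N heads were next set against GFP male heads and against SR heads, comparisons that use the same N libraries as the choice of the 111 genes, so their values are given side by side and not as support. N minus GFP male called 1429 genes, 11.7% of those tested, 4% higher and 7.68% lower in N. Among the 68, 10 were higher and 1, LOC101890558, lower in N than in GFP males, and 2 of the 43 were lower. LOC101890558, with its N values given above, had 991, 1111 and 929 normalized counts in GFP male heads, and its SR heads stood at 1176, 317 and 205. N minus SR called 37 genes, 0.302% of those tested, 0.245% higher and 0.0572% lower in N. Of the 68, 23 were higher in N than in SR, and of the 43, 5 were lower. The 1429 genes became 279 or 143 without N replicate 1 or 2, and 645, 102 or 264 without GFP male replicate 1, 2 or 3. The 37 became 18, 10 or 16 without N replicate 1, 2 or 3, and 16 without SR replicate 1 or 3.

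Among the 10 genes higher in N than in both GFP females and GFP males, levels in SR were also above those of the GFP groups in part of the genes. LOC105261630 on element A, chosen after its values were seen like the next 2, had 47.1, 78 and 56.6 normalized counts in N heads and 36.6, 51.3 and 26.7 in SR heads, against 4.13, 3.01 and 3.73 in GFP male and 5.4, 2.67 and 2.78 in GFP female heads. LOC101901321 on element A had 17.7, 40.3 and 55.1 in N heads and 12.2, 49.3 and 25 in SR heads, against 0.919, 1 and 1.87 in GFP male and 1.35, 2.67 and 1.85 in GFP female heads. LOC109613437 on element A had 256, 357 and 126 in N heads and 56.4, 233 and 48.1 in SR heads, against 5.97, 4.02 and 4.48 in GFP male and 4.05, 6.67 and 30.6 in GFP female heads. All 6 Md-tra RNAi heads lay above all 6 GFP heads in these 3 genes, which were picked by their values. The same held for LOC109611651 on no assigned element, LOC109613737 on element B, LOC101898687 on D and LOC101890997 on E, which are also among the 10. The share of all tested genes with this pattern was not counted. SR minus GFP male gave limma adjusted p of 0.00852 for LOC105261630, 0.017 for LOC101901321 and 0.0276 for LOC109613437. It gave 0.0491 for LOC109611651, 0.0947 for LOC109613737, 0.152 for LOC101898687 and 0.0285 for LOC101890997.

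In the abdomen, N and GFP females differed at 9562 of 12537 genes, 76.3% of those tested, 42.1% higher and 34.1% lower in N. The median log2 difference of all abdomen genes was 0.53 with the deposited scaling and 0.02 with TMM scaling, and 2 of the N abdomens held only 2689265 and 2756581 reads. Of the 68 genes higher in N heads, 59 were tested in the abdomen, and 50 were higher and 3 lower there (47 and 4 with TMM), with a median difference of 4.86. Of the 43 genes lower in N heads, 36 were tested, and 14 were higher and 10 lower in N abdomens (12 and 13 with TMM), with a median of 1.10 (0.63 with TMM). Tables of the 2 tissues were scaled separately, so only differences within a tissue are given.

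LOC101892939 had 17141, 1149.9 and 2930.1 normalized counts in N abdomens, against 0.206, 0 and 2.56 in GFP female abdomens, and LOC101895413 had 682, 1298 and 824 in N abdomens, against 5.16, 1.92 and 2.84 in GFP female abdomens. Both differed in the direction of the heads, without overlap. CPR had 4936, 2953 and 2308 in N abdomens, against 7434, 7726 and 7697 in GFP female abdomens (-1.24 ± 0.26 on the log2 scale, SE, n = 3 per group, limma adjusted p = 0.00111). Among the genes lower in N heads, LOC101893737 also fell in N abdomens (-2.16 ± 0.22, limma adjusted p = 7.6e-06). In 8 of the 28 called genes that the naming rule gives, N and GFP females lay apart in opposite directions in heads and abdomens. Over the 11178 genes tested in both, which were not chosen for lying apart in heads, the share was 5.24%. These shares are therefore not alike, and not all of the 28 were tested in the abdomen. LOC101900425 was one of the 8, with 219, 125 and 964 in N abdomens, against 5.37, 6.72 and 6.82 in GFP female abdomens (5.36 ± 0.83, limma adjusted p = 0.00015).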

How the data were processed

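Single-fly head and abdomen RNA was sequenced with a stranded poly(A) kit, per the labels' protocols. The submitters' processing notes name CASAVA 1.8, HISAT2 (with the version 0.12.2), HTSeq 0.9.1 and DESeq2 1.16.1, without roles, and name neither genome build nor annotation. The deposited values are a signal per gene, read counts divided by a size factor for each library, per the file headers and the values. The authors deposited log2 fold changes and adjusted p-values of their own comparisons beside them, of which the fold changes were used to find the libraries compared.

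Every deposited value was a whole multiple of its library's smallest (100% of values within 0.001 of a whole number of reads), which gave back the reads. Values were analysed as log2(normalized count + 1), for genes with a value of 10 or more in 3 or more of a tissue's 12 libraries, with limma 3.58.1 in R 4.3.3 (trended prior, all 4 groups of a tissue sharing the spread, no block). Had the tables held raw counts, edgeR would have been the first test. Adjustment followed Benjamini and Hochberg over all genes tested, at a threshold of 0.05. On the recovered reads, edgeR 4.0.16 called 63 genes and DESeq2 1.42.0 called 611 between N and GFP female heads. Fold changes on this scale understate those of genes with few counts. Depth was 12080603 to 35498286 reads in the 6 heads, and intervals (95%, exact Poisson) and floors of 3 reads cover counting error only, since PCR copies were not marked with molecular identifiers and reads are no independent molecules.

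Named genes were per direction the 10 called genes with the widest difference that averaged 50 or more in the group with more counts and did not overlap, called genes with a symbol, called genes averaging 5000 or more in that group, and members of the symbol lists. Genes described as named after their values were seen fall outside this rule. The members, lists and rule were chosen with earlier results of these data known. Of the 16540 identifiers, 13644 matched the RefSeq gene table (85 of the 111 called genes), which gives no description, so genes are named as in the deposited tables and lists rest on symbols. Paralogs and overlapping genes can share reads. Replicates are separate flies per the labels. Alternatives were another pseudocount, filter, scaling or test, a fit of 2 groups, array weights, a replicate block and leaving out each library. The limma and edgeR fits were also run on simulated reads with 200 genes changed and the same spread setting for every gene. Genes with a spread as wide as that of yp3 were not simulated, so this checks the code only.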

Additional observations from a re-analysis of the deposited data

Results flagged for a closer look

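In heads, the difference between N and GFP females was set against that between SR and GFP males in 1 limma model, as (N minus GFP female) minus (SR minus GFP male), with Benjamini-Hochberg adjustment over all genes. It called 296 genes, 2.42% of those tested, and 25 of the 28 called genes that the naming rule gives. This test uses the same N and GFP female libraries as the choice of those genes, so it does not add support to their first difference. Among genes higher in N the adjusted p was 0.00013 for LOC101892939, 7.39e-05 for LOC101889437, 0.00013 for LOC105262053, 0.000654 for LOC109613990, 7.22e-06 for LOC109614219, 8.94e-06 for LOC105262139, 0.00891 for LOC101890558, 5.88e-05 for LOC105262442, 0.0224 for LOC109612372 and 0.0018 for LOC101896805 by limma. Among genes lower in N it was 0.000468 for LOC101889640, 0.000976 for LOC101889813, 0.0067 for LOC101897531, 0.0126 for LOC101896716, 0.00595 for LOC109612354, 0.00215 for LOC101895918, 0.00122 for LOC101893397, 0.0421 for LOC101887686, 0.000468 for LOC101900203 and 0.00652 for CPR by limma. For the remaining lower genes it was 0.0336 for LOC101900118, 0.00184 for LOC101893737, 0.0211 for LOC101887335, 0.0394 for LOC101900425 and 0.00333 for LOC101890206 by limma.

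In 8 of the 28 genes the 3 N and the 3 GFP female libraries lay apart in opposite directions in the 2 tissues. The share was 5.24% over the 11178 genes tested in both, a set not chosen for lying apart in heads, so it is not a like measure. LOC101893691, higher in N heads, had a log2 difference of -0.904 in the abdomen (limma adjusted p = 0.185). The others were lower in N heads and higher in N abdomens, where the log2 difference was 3.34 for LOC101893397, 5.89 for LOC101887686, 0.831 for LOC101890741 and 3.14 for LOC101900118. It was 5.36 for LOC101900425 and 3.88 for LOC101890206. For LOC101887335 it was 1.68, but this rests on 1, 2 and 1 reads in N abdomens, against 6, 8 and 2 in GFP female abdomens, and was not called (limma adjusted p = 0.0797). With TMM scaling LOC101890741 differed by 0.295 (limma adjusted p = 0.244, against 0.0062 with the deposited scaling), and LOC101893691 was called lower in N abdomens (-1.43, limma adjusted p = 0.0437). The difference between tissues was not tested, the tissues were scaled separately, and the median of all abdomen genes was 0.53.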

How the results depend on the processing

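Between N and GFP female heads the 111 genes became 63 with edgeR, 611 with DESeq2, 40 with these 2 groups fitted alone and 223 with array weights, and 33 to 264 with 1 library left out. On Muller element A the 51 became 29, 171, 15 and 86 in the same settings and 16 to 92 with a library left out. N minus GFP male heads gave 2717 genes with DESeq2, 2856 alone, 4448 with array weights and 102 to 2011 with a library left out. N minus SR heads gave 21 with edgeR, 203 with DESeq2, 2 alone, 101 with array weights and 10 to 37 with a library left out. SR minus GFP male heads gave 2028 with DESeq2, 2911 with array weights and 39 to 342 with a library left out. Of the 68 genes higher in N, 12 to 27 were then called lower in SR, and of the 43 lower in N, 5 to 13 higher. N minus GFP female abdomens stayed within 8579 to 10125 genes, 8839 to 9587 with a library left out. Same-numbered N and GFP female heads had correlations of deviations of -0.12, 0.04 and -0.20, and differently numbered ones of -0.21 to 0.31. With 3 flies per group these values cannot decide whether replicate numbers pair the heads. A replicate block gave 53 genes for N minus GFP female, 25 of them on element A, 891 for N minus GFP male, 21 for N minus SR, 202 for SR minus GFP male and 9585 in the abdomen. The block followed the replicate numbers of the titles. Library code numbers were 2, 3 and 4 for N and GFP female heads but 1, 2 and 3 for SR and GFP male heads. Across these pairs of groups the block therefore does not follow the code numbers. Of the 28 named genes called, 13 kept their call in every setting and 15 lost it in at least 1, 9 of them with edgeR, and none changed direction. LOC101890558 lost its call with the 2 groups fitted alone (limma adjusted p = 0.0633). CPR, LOC101896805, LOC101893691, LOC101897531, LOC109612354, LOC101890741, LOC101900118, LOC101887335 and LOC101900425 also lost theirs in that fit. The cause of these changes was not tested. With 3 flies per group and about 2 reads behind a normalized count of 5 in the shallowest N head, low genes are measured coarsely.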
